A study of Mus musculus with 4 samples.

Results

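The respiratory chain subunit genes were taken as all RefSeq protein-coding genes of the mouse with symbols beginning Nduf, Sdh (Sdha to Sdhd), Uqcr, Cox4 to Cox8 or Atp5, which gave 96 of 21627 genes. By symbol alone, 41 were assigned to complex I, 8 were complex I assembly factors named Ndufaf, 4 were assigned to complex II, 8 to complex III, 18 to complex IV and 17 to complex V. Peaks were compared between 2 populations of medullary thymic epithelial cells, mTEChi and mTEClo, with 2 CUT&RUN libraries of each. CUT&RUN recovers short DNA fragments that a protein A-MNase fusion cuts around an antibody bound to chromatin. The cells came from thymi of mice 4 to 5 weeks old, were enriched for EpCAM and then sorted, and 500000 cells entered each condition. The genotype of all 4 libraries is labelled Trp53-WT, so no library came from cells lacking the p53 gene. Titles give the antibody as anti-p53, while the protocol gives anti-BAF155, directed at a core member of BAF chromatin remodellers; which protein the peaks mark is therefore not known. Whether the replicates came from separate mice is not stated, so the p-values reflect variation among 4 libraries that could be purely technical.

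The respiratory chain passes electrons from NADH through complex I, or from succinate through complex II, to complex III, cytochrome c and complex IV, where oxygen is reduced. Complexes I, III and IV pump protons across the inner mitochondrial membrane, and complex V, the ATP synthase, uses the gradient to make ATP. Most subunits are encoded in the nucleus and the others in mitochondrial DNA, which the symbols above do not cover. The nuclear genes are widely expressed, and their promoters are known for binding sites of NRF1, of the ETS factor GABP and of YY1. Several subunits of complex IV also exist as isoforms restricted to muscle, lung or testis.

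The lists held 73510 and 85308 peaks in the mTEChi libraries and 89809 and 69359 in the mTEClo libraries, each a summit with 150 bp on either side. Read depth is unknown, because peak lists carry no read counts. Genes with a summit at most 1 kb, or at most 5 kb, from either end of the gene interval are described as called in that library. Scores are the authors' −log10 values with a minimum of 2.0, and they rank peaks only within a list. Chromosome X held 498 and 755 peaks in the mTEChi libraries and 443 and 228 in the mTEClo libraries, which touches the 3 X-linked members Ndufa1, Ndufb11 and Cox7b. Of 11 genes that mark thymic epithelium or its mature medullary cells, 3 (H2-Aa, H2-Ab1 and Aire) were called within 1 kb in all 4 libraries, and of 5 thymocyte genes 0, against 17.1% of all genes; Krt5 and Foxn1 were called in 2 and 1 libraries, and a peak is no measure of expression.

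Promoters that carried some of the strongest shared peaks are printed so that nearly all summit positions given for them can be read on the letters. They are the 4 members ranked highest among those with a summit inside the RefSeq promoter window of 300 bases in every library (assembly GRCm38.p6, the build of mm10). Each runs 5′ to 3′ on the gene's strand from 250 bases before the start site to 30 bases after it. Capitals mark matches to the motifs described with the promoters as a group. Uqcrq ranked above these 4 members but has no listed start site, so its promoter is not printed.
Atp5b: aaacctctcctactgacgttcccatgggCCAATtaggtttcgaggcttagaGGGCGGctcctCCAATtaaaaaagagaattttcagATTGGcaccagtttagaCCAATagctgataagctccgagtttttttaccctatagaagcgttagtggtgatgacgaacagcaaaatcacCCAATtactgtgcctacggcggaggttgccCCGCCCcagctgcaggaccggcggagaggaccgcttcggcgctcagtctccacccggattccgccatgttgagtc
Ndufb5: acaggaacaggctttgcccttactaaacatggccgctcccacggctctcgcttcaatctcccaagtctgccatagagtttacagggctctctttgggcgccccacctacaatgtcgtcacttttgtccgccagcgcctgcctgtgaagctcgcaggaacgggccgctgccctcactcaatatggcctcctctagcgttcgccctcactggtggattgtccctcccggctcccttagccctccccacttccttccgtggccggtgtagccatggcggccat
Ndufs8: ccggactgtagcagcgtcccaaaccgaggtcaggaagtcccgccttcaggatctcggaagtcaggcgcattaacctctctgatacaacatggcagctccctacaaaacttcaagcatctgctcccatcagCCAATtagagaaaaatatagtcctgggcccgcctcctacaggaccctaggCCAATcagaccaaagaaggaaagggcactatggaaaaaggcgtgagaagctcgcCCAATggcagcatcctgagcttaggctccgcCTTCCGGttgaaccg
Atp5j: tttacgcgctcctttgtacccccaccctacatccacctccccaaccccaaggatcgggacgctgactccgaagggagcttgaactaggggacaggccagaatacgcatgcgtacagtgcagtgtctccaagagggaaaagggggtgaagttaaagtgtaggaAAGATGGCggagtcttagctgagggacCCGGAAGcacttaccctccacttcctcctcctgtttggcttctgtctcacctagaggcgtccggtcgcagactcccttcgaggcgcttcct
The windows lie at chr10:128083057-128083356 (plus strand) for Atp5b, chr3:32736813-32737112 (plus strand) for Ndufb5, chr19:3912725-3913024 (minus strand) for Ndufs8 and chr16:84834927-84835226 (minus strand) for Atp5j. Atp5b encodes the catalytic beta subunit of ATP synthase, and its summits fell on bases 76 and 102 in mTEChi and on bases 113 and 63 in mTEClo, among the CCAAT boxes. In Ndufb5, an accessory subunit of complex I, they fell on bases 78 and 50 in mTEChi and on bases 103 and 116 in mTEClo, and no searched motif was found there. In Ndufs8, an iron-sulfur subunit of complex I, they fell on bases 166 and 152 in mTEChi and on bases 115 and 189 in mTEClo. The ETS match of Ndufs8 begins at base 266 and so lay outside the range of its summits. Atp5j encodes coupling factor 6 of the ATP synthase stalk, and its summits fell on base 238 and, just past the printed letters, base 281 in mTEChi and on bases 212 and 231 in mTEClo. Its ETS match begins at base 190 and its YY1 match at base 163, both upstream of all 4 summits. The window of the other listed start site of Atp5j held no summit in any library.

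A nearby peak was present at a larger share of the respiratory chain genes than of all protein-coding genes in each of the 4 libraries. Within 1 kb, 63 (65.6%) and 61 (63.5%) of the 96 genes were called in the mTEChi libraries, and 66 (68.8%) and 56 (58.3%) in the mTEClo libraries. Over all 21627 genes the shares were 37.4% and 37.4% in the mTEChi libraries and 47.3% and 35.7% in the mTEClo libraries. In all 4 libraries 38 members (39.6%) were called, against 17.1% of all genes, and in none 14 members (14.6%), against 34.0%. The median member was called in 3 libraries and the median gene in 1. Within 5 kb, 74 (77.1%) and 77 (80.2%) members were called in the mTEChi libraries, where 59.7% and 64.1% of all genes were. In the mTEClo libraries 84 (87.5%) and 72 (75.0%) members were called within 5 kb, where 69.2% and 59.7% of all genes were. At that distance 52 members (54.2%) were called in all 4 libraries, against 36.0% of all genes, and 5 (5.21%) in none, against 14.5%. As a family of comparable size with the same organelle, the 78 genes named Mrp (mitochondrial ribosomal proteins) were called in all 4 libraries in 23 cases (29.5%) within 1 kb and in 47 cases (60.3%) within 5 kb. Within 1 kb their shares were below those of the members in mTEChi (64.1% and 55.1%) and above them in mTEClo (70.5% and 60.3%). Within 5 kb they were above those of the members in every library, with 83.3% and 83.3% in mTEChi and 92.3% and 79.5% in mTEClo.

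**Figure D1:**
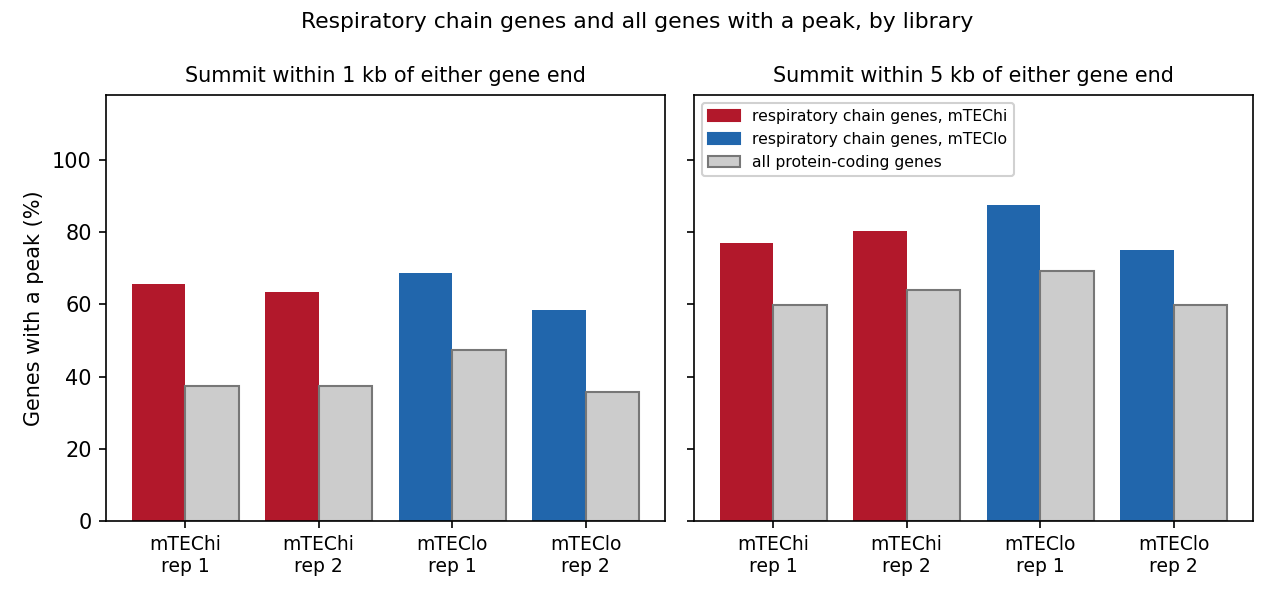
Percent of respiratory chain genes (coloured bars, n = 96) and of all protein-coding genes (grey bars, n = 21627) with a summit within 1 kb or 5 kb of either gene end, in 2 mTEChi and 2 mTEClo libraries. The coloured bar is above the grey one in every library, and mTEClo replicate 1 has the highest share of both kinds.

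No difference between the cell states passed a test, and none could, since 2 libraries against 2 allow no two-sided exact permutation p below 0.333. Within 1 kb the share of members called averaged 64.6 ± 1.47% in mTEChi and 63.5 ± 7.37% in mTEClo (SD, n = 2 each), a difference of 1.04 percentage points with p = 1.0 by the exact permutation test. Within 5 kb it averaged 78.6 ± 2.21% in mTEChi and 81.2 ± 8.84% in mTEClo (SD, n = 2 each), a difference of -2.6 points with p = 1.0 by the same exact test. Both differences were smaller than the spread between the 2 mTEClo libraries. The sign of the 1 kb difference rested on single libraries: with mTEClo replicate 2 left out it was -4.17 and with mTEChi replicate 1 left out 0.0, while the 5 kb difference became 3.65 once mTEClo replicate 1 was left out. Relative to all genes of the same library, members within 1 kb stood 28.3 and 26.1 points higher in mTEChi and 21.4 and 22.6 points higher in mTEClo. These groups did not overlap, and their difference of 5.18 points had the smallest p the exact permutation test can give here, 0.333. When only the top 10000 peaks per library were kept, the difference was 1.23 points (p = 1.0 by the exact permutation test). Within 5 kb the same margins were 17.3 and 16.1 points in mTEChi and 18.3 and 15.3 points in mTEClo, and the groups overlapped.

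The share of genes with a peak varied widely among the 5 complexes. All 4 complex II genes were called within 1 kb in both mTEChi libraries and in mTEClo replicate 2, and 3 of 4 in mTEClo replicate 1. Complex III followed, with 75.0% and 100.0% of its 8 genes called in mTEChi and 75.0% and 87.5% in mTEClo. Complex I had 73.2% and 63.4% of 41 genes called in mTEChi and 65.9% and 61.0% in mTEClo. The ATP synthase genes varied most between libraries, with 58.8% and 70.6% of 17 genes called in mTEChi and 82.4% and 41.2% in mTEClo. Complex IV was lowest in 3 of the 4 libraries, all except mTEClo replicate 2, with 8 (44.4%) and 6 (33.3%) of 18 genes called in mTEChi and 9 and 8 (44.4%) in mTEClo. Its shares lay near those of all genes, 37.4% and 37.4% in mTEChi and 47.3% and 35.7% in mTEClo. Genes called in all 4 libraries within 1 kb numbered 18 of 41 (43.9%) in complex I, 3 of 4 in complex II, 3 of 8 in complex III, 4 of 18 (22.2%) in complex IV and 7 of 17 (41.2%) in complex V. Over all genes the share called in all 4 libraries was 17.1%. The order of the complexes was not tested, since genes are not replicates.

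Between the states, the mean share of complex I genes was 68.3 ± 6.9% in mTEChi and 63.4 ± 3.45% in mTEClo, and that of complex IV genes 38.9 ± 7.86% in mTEChi and 47.2 ± 3.93% in mTEClo (SD, n = 2 each). The differences in percentage points were 4.88 for complex I, 12.5 for complex II, 6.25 for complex III, -8.33 for complex IV and 2.94 for complex V. None passed the exact permutation test after Benjamini-Hochberg adjustment over the 5 complexes (adjusted p = 1.0 for each). Direction was not stable for complexes III and V, where leaving out 1 library turned it, to -6.25 for complex III without mTEChi replicate 2 and to -17.6 for complex V without mTEClo replicate 2. The complex I difference was 0.0 without mTEChi replicate 1, and the complex II difference 0.0 without mTEClo replicate 1. The 8 Ndufaf assembly genes had 62.5% called in each mTEChi library and 87.5% and 62.5% in the mTEClo libraries within 1 kb. At that distance all genes had 37.4% and 37.4% called in mTEChi and 47.3% and 35.7% in mTEClo. Within 5 kb the 8 assembly genes had 62.5% and 75.0% called in mTEChi and 100.0% and 87.5% in mTEClo. All genes had 59.7% and 64.1% called within 5 kb in mTEChi and 69.2% and 59.7% in mTEClo, a difference of -2.51 points. The groups of the 8 assembly genes did not overlap (difference -25.0 points, p = 0.333 by the exact permutation test, the smallest possible).

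**Figure D2:**
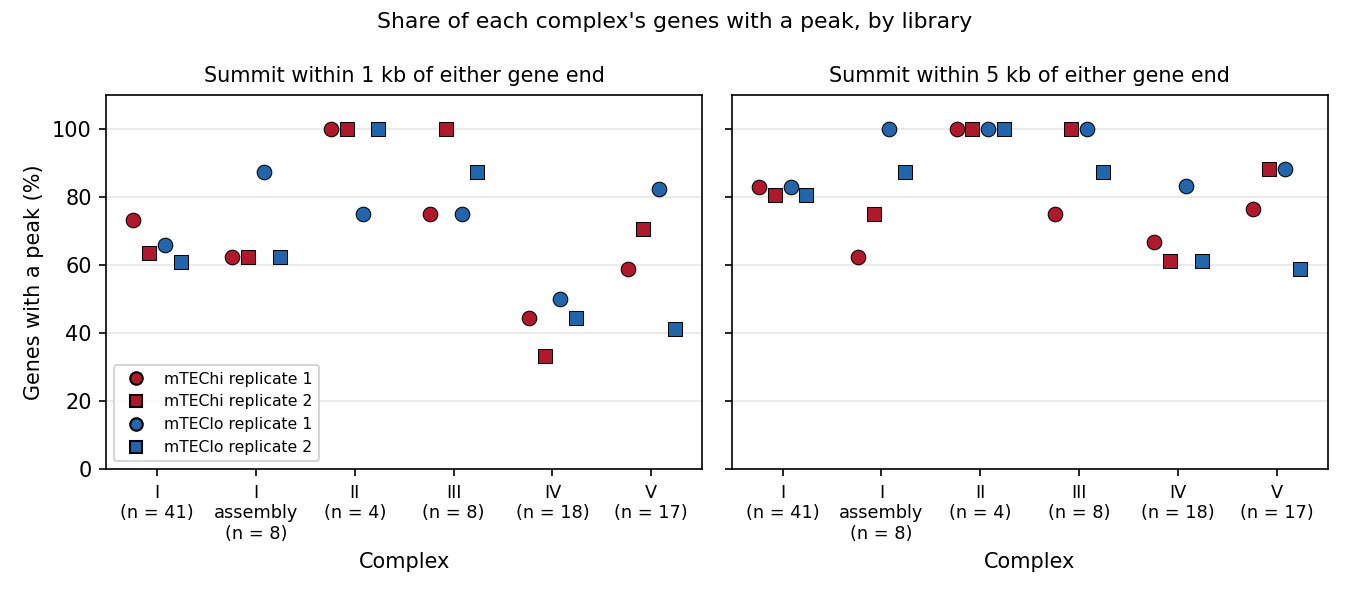
Percent of each complex's genes with a summit within 1 kb (left) or 5 kb (right) of either gene end, 1 point per library, with the number of genes under each complex. Complex II points sit at 75 or 100% and complex IV points at 6 to 9 of 18 genes within 1 kb, and red (mTEChi) and blue (mTEClo) points overlap in all 5 complexes at that distance.

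Among complex I genes, the accessory subunit Ndufb5 had the highest-ranked shared peak. Its score was 30.6 and 14.4 in mTEChi and 21.4 and 15.7 in mTEClo, with summits 129 to 195 bp before its start. These summits lie between Ndufb5 and Mrpl47, a mitochondrial ribosomal protein gene, whose end was the nearer one in both mTEChi libraries, at 135 and 107 bp. Ndufs8 scored 17.6 and 27.3 in mTEChi and 14.3 and 12.8 in mTEClo, and its 4 summits fell within 74 bp of each other. Ndufa5, an accessory subunit of the hydrophilic arm, scored 9.8 and 9.91 in mTEChi and 12.7 and 8.37 in mTEClo. Ndufa11, a membrane-arm subunit, scored 11.1 and 9.65 in mTEChi and 9.52 and 8.61 in mTEClo, but every summit was nearer the neighbouring gene Vmac. The best-scoring summits of Ndufa11 lay 71 and 48 bp from its start in mTEChi and 635 and 711 bp from it in mTEClo, although mTEClo replicate 1 also held a weaker summit (6.01) inside the promoter window. Of the assembly factors, Ndufaf8 scored 17.6 and 8.83 in mTEChi and 15.0 and 7.75 in mTEClo, with 42 bp between its outermost summits, the tightest of the 38 genes called in all 4 libraries. Its summits were nearer the gene Tepsin in every library. Ndufaf2, which shares its start region with the DNA repair gene Ercc8, scored 10.0 and 5.63 in mTEChi and 11.3 and 6.57 in mTEClo.

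Complex II oxidises succinate in the citric acid cycle. Its iron-sulfur subunit gene Sdhb scored 14.6 and 11.7 in mTEChi and 11.7 and 5.81 in mTEClo, with all 4 summits within 32 bp of the start. The membrane anchor gene Sdhc scored 9.71 and 4.88 in mTEChi and 7.39 and 3.94 in mTEClo, and the other anchor gene, Sdhd, 2.77 and 3.34 in mTEChi and 10.6 and 4.93 in mTEClo. Sdha, the flavoprotein gene, scored 3.19 and 3.83 in mTEChi and 4.93 in mTEClo replicate 2. In mTEClo replicate 1 the nearest summit to Sdha lay 4884 bp away, which is the 1 missing call of this complex within 1 kb.

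In complex III, Uqcrq (chr11:53427922-53430831), a small subunit of the cytochrome bc1 complex, scored 58.9 and 35.4 in mTEChi and 21.3 and 15.5 in mTEClo. The summits lay 253 and 285 bp from the upper end of the gene in mTEChi and 122 and 297 bp from it in mTEClo, and no other gene end was nearer. They stood in the top 1% of each list, at percentiles of 99.6 or more. Uqcrc1, a core subunit, scored 13.8 and 7.87 in mTEChi and 15.0 and 6.57 in mTEClo, with summits within 55 bp of its start. Uqcr10 was called in all 4 libraries as well, with each summit nearer the neighbouring gene Zmat5. All 8 genes assigned to complex III by symbol were called in at least 3 libraries.

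Complex V held the gene with the highest worst rank apart from Uqcrq: Atp5b (chr10:128083307-128090388) scored 63.8 and 17.5 in mTEChi and 27.1 and 20.4 in mTEClo. Its summits lay 175 and 149 bp before the start in mTEChi and 138 and 188 bp before it in mTEClo, all within 50 bp of each other. Atp5j scored 16 and 12.1 in mTEChi and 9.73 and 11.7 in mTEClo. Its start region is shared with Gabpa, which encodes the DNA-binding subunit of GABP, and the Atp5j summits lay 98 and 55 bp from the end of Gabpa in mTEChi and 124 and 105 bp from it in mTEClo. The same peaks are thus the called peaks of both genes and cannot be assigned to one of them. The c subunit of the membrane ring is encoded by Atp5g1, Atp5g2 and Atp5g3, a set singled out after its values were seen. Atp5g2 scored 8.46 and 5.4 in mTEChi and 8.91 and 10.2 in mTEClo within 141 bp of its start, whereas Atp5g1 had no summit within 5 kb in any library. Atp5g3 had a summit within 316 bp of its listed start site in both mTEChi libraries and in mTEClo replicate 1. Atp5a1, the gene of the alpha subunit, had no summit within 1 kb in any library, in contrast to Atp5b.

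The best complex IV gene was Cox6a1, the widely expressed form of subunit 6a, which scored 7.26 and 5.43 in mTEChi and 12 and 13.1 in mTEClo. Its best summit lay within 106 bp of the start in 3 libraries and near the other gene end in mTEChi replicate 2, where a weaker summit lay 198 bp from a gene end. The isoforms restricted to certain tissues were compared with their widely used partners. Of 8 such restricted genes, 2 and 1 were called within 1 kb in mTEChi and 4 and 3 in mTEClo, and 0 were called in all 4 libraries, against 17.1% of all genes, which for 8 genes is near the background. Of the 7 partners, 5 and 3 were called in mTEChi and 4 and 4 in mTEClo, and Cox6a1, Cox8a and Ndufa4 were called in all 4. The lists are small, and the difference between them was not tested. Cox8a scored 9.08 and 6.01 in mTEChi and 10.6 and 3.94 in mTEClo, whereas its muscle form Cox8b was called only in mTEClo replicate 2, with a score of 3.48. Ndufa4 scored 13.8 and 4.88 in mTEChi and 6.79 and 7.15 in mTEClo, at summits nearer the neighbouring gene Phf14. Its relative Ndufa4l2 was called in 1 library of each state, with scores of 3.19 in mTEChi and 3.76 in mTEClo. By their symbols, Ndufa4 and Ndufa4l2 are counted under complex I, not complex IV, in the totals by complex. The muscle form Cox7a1 scored 4.08 and 3.21 in mTEChi and 3.11 in mTEClo replicate 2, within 114 bp of its start. Cox6b2 and Cox8c were each called in mTEClo replicate 1 alone, with scores of 4.6 and 6.4, and Cox6a2 and Cox7b2 in no library. Among the partners, Cox4i1 was called in mTEClo replicate 2 alone (3.94) and Cox6b1 in mTEChi replicate 1 alone (6.13). X-linked Cox7b was called in mTEChi replicate 1 (3.62) and mTEClo replicate 1 (4.6). Cox7a2 was called in none by its gene ends, although summits lay within 91 bp of its listed start site in both mTEChi libraries and in mTEClo replicate 1.

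**Figure D3:**
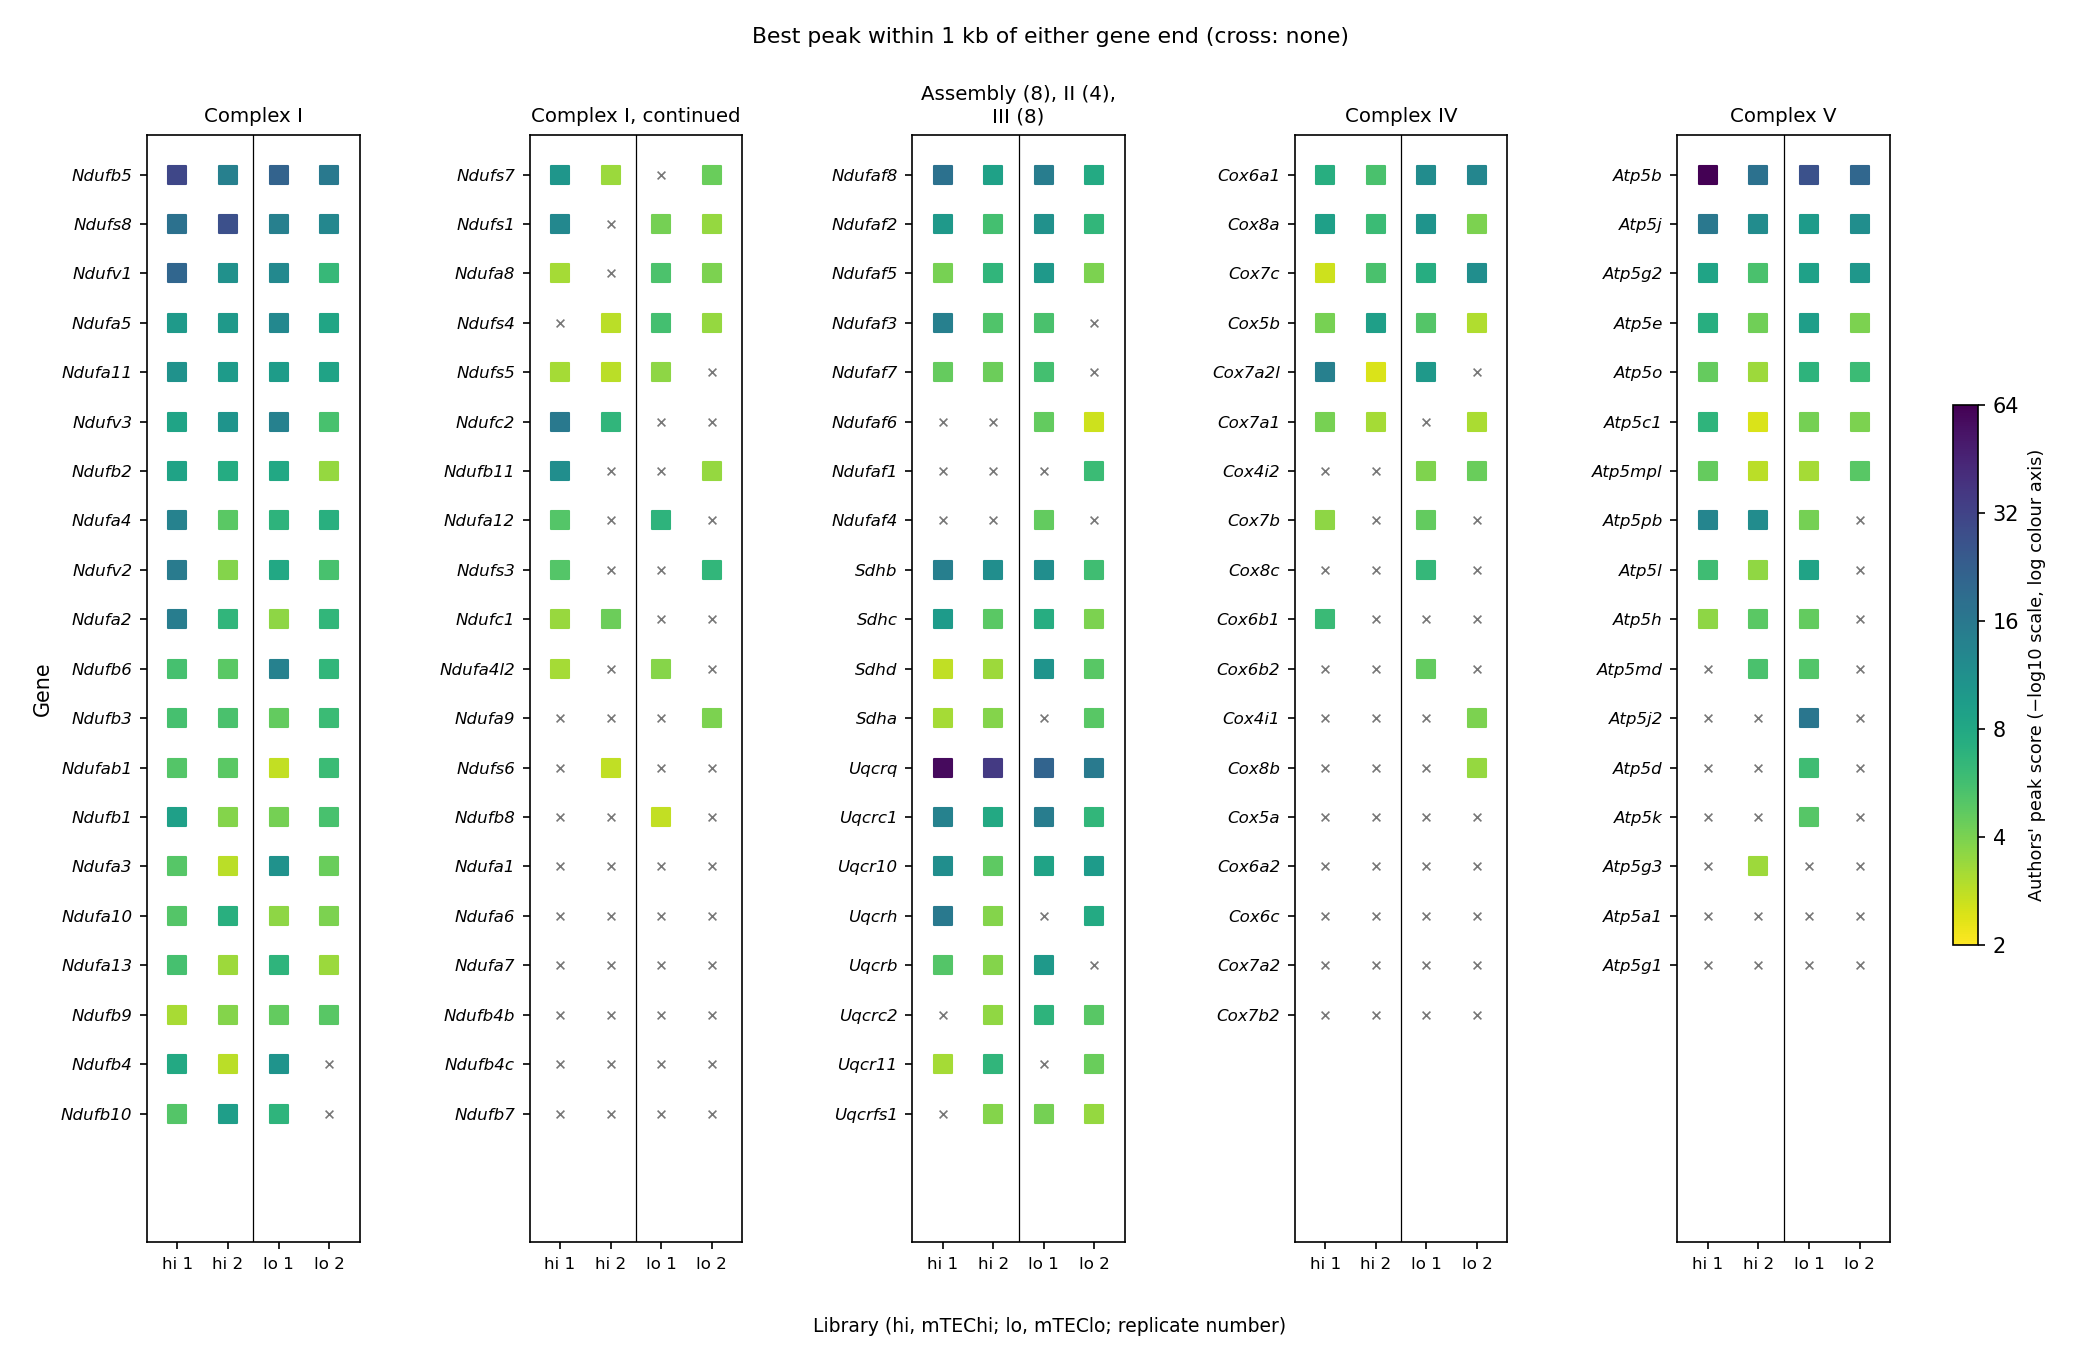
Respiratory chain genes by complex (rows) in mTEChi replicates 1 and 2 (hi) and mTEClo replicates 1 and 2 (lo); a square shows the authors' score of the best peak within 1 kb of either gene end on a log colour axis, and a cross shows no peak. Atp5b and Uqcrq are darkest (63.8 and 58.9 in mTEChi replicate 1), and genes with crosses in all 4 columns stand at the foot of their complex.

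Few members separated the states. Within 1 kb, 2 (2.08%) were called in each mTEChi library and in no mTEClo library, against 1.94% of all genes, and 2 (2.08%) showed the opposite pattern, against 4.08%. These shares are near or under those of all genes. Both mTEChi-only genes, Ndufc1 and Ndufc2, encode accessory subunits of the complex I membrane arm. Ndufc1 (chr3:51405479-51408955) scored 3.43 and 4.34 in mTEChi at 87 and 73 bp from its start, whereas the nearest mTEClo summits lay 1780 and 3738 bp away. Ndufc2 (chr7:97400003-97407800) scored 15.8 and 6.61 in mTEChi at 918 and 825 bp before its start, just inside the window, whereas the nearest mTEClo summits lay 10052 and 9792 bp away. Of these genes Ndufc2, but not Ndufc1, kept the pattern within 5 kb. The mTEClo-only genes were Cox4i2, the isoform of subunit 4 known from lung and from low oxygen, and the assembly factor gene Ndufaf6. Cox4i2 scored 3.92 and 4.42 in mTEClo, at 678 and 0 bp from its lower end, while the nearest mTEChi summits lay 5628 and 11630 bp away. Ndufaf6 scored 4.6 and 2.62 in mTEClo, but at opposite ends of the gene, and the nearest mTEChi summits lay 13087 and 1539 bp away. Just outside the 1 kb limit in mTEChi replicate 2 were Ndufb7 at 1030 bp and Cox6b1 at 1042 bp.

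Within 5 kb, 4 members (4.17%) were called in mTEChi alone, against 2.23% of all genes, and 6 (6.25%) in mTEClo alone, against 3.53%. Besides Ndufc2, the mTEChi-only genes were Ndufa7 (scores 3.62 and 3.34), Atp5a1 (2.77 and 3.16) and Cox6b1 (6.13 and 2.88). The nearest mTEClo summits of these lay 6076 to 12373 bp away. Besides Cox4i2, the mTEClo-only genes were Ndufaf1 (3.62 and 6.0), Ndufaf4 (4.6 and 3.03), Atp5k (4.98 and 4.42), Cox8b (2.74 and 3.48) and Cox5a (4.1 and 3.48). Their nearest mTEChi summits lay 8435 to 33381 bp away. Ndufaf1 and Ndufaf4 are complex I assembly factors, Atp5k encodes a subunit at the ATP synthase dimer interface, and Cox5a a subunit close to the catalytic core of complex IV. Summits of a state often lay far apart: those of Atp5k lay 39 and 3997 bp from its start and those of Ndufaf1 3302 and 166 bp. Both mTEClo summits of Cox5a lay near a start site listed inside the gene interval, at 134 and 524 bp from it.

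No summit lay within 5 kb in any of the 4 libraries for Ndufa1, Ndufa6, Ndufb4b, Cox7b2 and Atp5g1. The nearest summit of Ndufa6, a complex I accessory subunit, lay 52531 and 17535 bp away in mTEChi and 15618 and 15799 bp away in mTEClo. X-linked Ndufa1 was farthest, with 77166 and 38960 bp in mTEChi and 60769 and 60695 bp in mTEClo. Cox7b2, a testis form, had its nearest summits 9921 and 6893 bp away in mTEChi and 13634 and 24116 bp away in mTEClo. Ndufb4b, by name a copy of Ndufb4, had them at 28947 and 7976 bp in mTEChi and at 20035 and 7764 bp in mTEClo. For Atp5g1 they were 47684 and 8403 bp away in mTEChi and 19800 and 8116 bp away in mTEClo. Its promoter, chosen after the values were seen as a contrast to Atp5b, also holds 5 CCAAT matches, besides an E-box and an AP-1 match (chr11:96075582-96075881, minus strand, capitals as above).
Atp5g1: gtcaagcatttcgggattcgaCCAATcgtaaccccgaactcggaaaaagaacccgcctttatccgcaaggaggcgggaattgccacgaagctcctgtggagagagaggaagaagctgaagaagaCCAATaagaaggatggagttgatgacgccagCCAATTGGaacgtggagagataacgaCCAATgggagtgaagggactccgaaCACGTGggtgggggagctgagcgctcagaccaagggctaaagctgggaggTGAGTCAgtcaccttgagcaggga
Another 9 members lacked a summit within 1 kb but had one within 5 kb. Gene intervals can extend past the usual start site, and 4 of the 78 members with a listed start (Atp5d, Atp5g3, Cox5a and Cox7a2) had none within 1 kb of an interval end. Atp5d had 1 call by its ends but a summit within 217 bp of a start site in all 4 libraries.

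Peaks of these genes concentrated at the start of transcription. Among the 69 members longer than 2 kb with a listed start site, a summit lay within 1 kb of the start in 53 (76.8%) and 48 (69.6%) in mTEChi and in 50 (72.5%) and 43 (62.3%) in mTEClo. The shares of all such genes were 39.3% and 37.0% in mTEChi and 49.3% and 36.1% in mTEClo. At the opposite end only 2 (2.9%) and 9 (13.0%) members had a summit in mTEChi and 5 (7.25%) and 5 (7.25%) in mTEClo, against 6.95% and 8.72% of all genes in mTEChi and 9.87% and 7.99% in mTEClo. The fullest 100 bp bin lay just before the start in 3 libraries and 100 bp further upstream in mTEChi replicate 2. It held 30.8 and 21.8 summits per 100 member genes in mTEChi and 30.8 and 17.9 in mTEClo. For all genes the fullest bin lay just before the start in every library, and held 9.77 and 8.2 per 100 in mTEChi and 11.8 and 8.09 in mTEClo. Where a member was called in all 4 libraries, the outermost of its 4 best summits were a median of 156 bp apart, and 19 of 38 spanned 150 bp or less. All 3697 genes called in the 4 libraries had a median of 155 bp and a share of 49.4%.

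**Figure D4:**
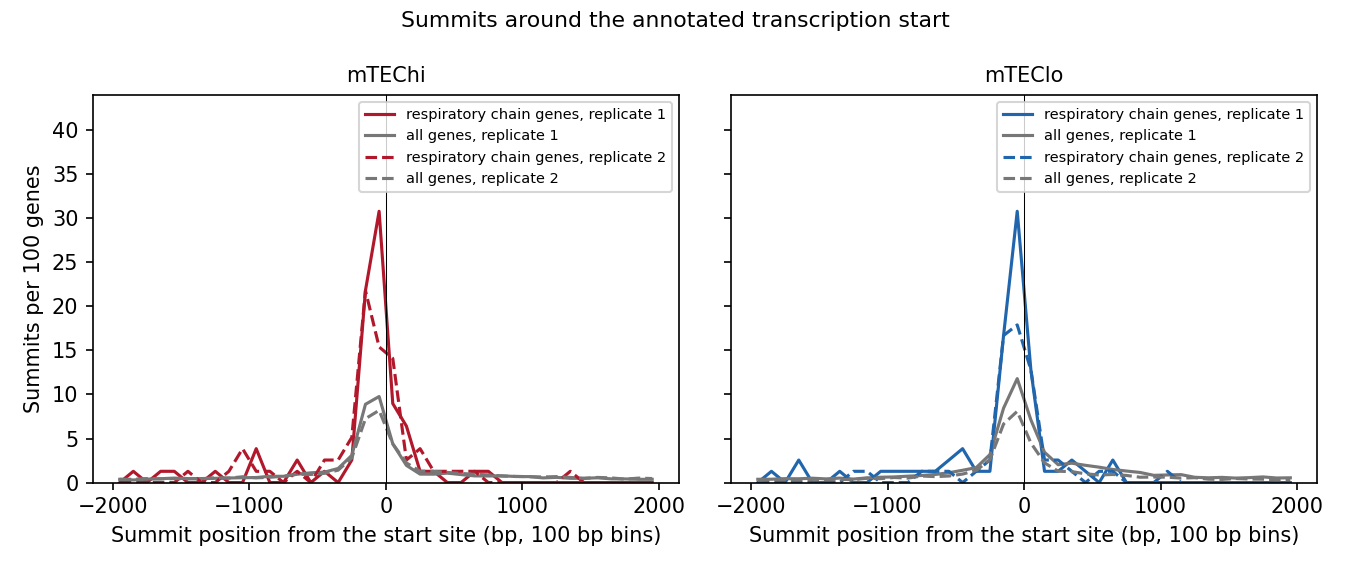
Summits per 100 genes in bins of 100 bp around the listed start site, for 78 respiratory chain genes (coloured) and 17273 protein-coding genes (grey); left, mTEChi, and right, mTEClo, with replicate 1 solid and replicate 2 dashed. The coloured lines peak within 200 bp upstream of the start, at 17.9 to 30.8 summits per 100 genes, against 8.09 to 11.8 for all genes.

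Called members also ranked high within the lists. The median percentile of their best peak was 90.1 and 80.5 in mTEChi and 85.9 and 76.5 in mTEClo, against 81.6 and 79.3 in mTEChi and 74.3 and 72.0 in mTEClo for all called genes. In mTEChi replicate 1, 33 of 63 called members (52.4%) had a peak in the top 10% of the list, against 40.8% of all called genes. The shares in mTEChi replicate 2 were 37.7% of called members and 36.9% of all called genes. They were 43.9% against 31.7% in mTEClo replicate 1 and 35.7% against 29.8% in mTEClo replicate 2. Since the margin in mTEChi replicate 2 was small, the high rank of member peaks differed between libraries of 1 state.

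Gene density and base composition varied together with these shares, and the genes were divided by each of them separately. Their part in the calls was not tested. Another protein-coding gene end lay within 1 kb of 54 members (56.2%), against 25.1% of all genes, and members had a median length of 7228 bp against 17330 bp. Among genes with such a neighbour, 26 of 54 members (48.1%) were called in all 4 libraries within 1 kb, against 31.5% of all genes. Without a neighbour, 12 of 42 members (28.6%) were, against 12.3% of all genes. Among promoters of at least the median GC content, 23 of 49 members (46.9%) were called in all 4 libraries, against 25.9%, and below it 10 of 29 (34.5%), against 9.5%. The share of members was above that of all genes in each of these 4 strata. The best peak was nearer the end of another gene for 17 of 63 (27.0%) and 13 of 61 (21.3%) called members in mTEChi and for 17 of 66 (25.8%) and 15 of 56 (26.8%) in mTEClo. Of the 38 members called in all 4 libraries, 21 had the member itself as the nearest gene in every library, measured to gene ends. Another gene's end was nearer in every library for 7: Atp5j, Ndufa4, Ndufa11, Ndufaf8, Ndufb1, Ndufb6 and Uqcr10. Measured to listed start sites, however, the Atp5j summits lay 13 and 30 bp from a start in mTEChi and 39 and 20 bp in mTEClo. Ndufb6 also had summits 95 and 145 bp from its listed start in mTEChi and 22 and 9 bp from it in mTEClo.

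Motifs known from promoters of respiratory chain genes were common among the members. RefSeq gave 83 promoter windows for 78 of the 96 members, and 10 motifs were searched on both strands and counted in the same way in 21044 windows of all genes. The NRF1 motif GCGCANGCG was found in 27.7% of member windows and 8.65% of all windows, the ETS motif CCGGAAG in 22.9% and 11.7%, and the YY1 motif AAGATGGC in 13.3% and 3.07%. The motif of estrogen-related receptors, AAGGTCA, was found in 9.64% of member windows and 4.06% of all windows, and the BANP motif CTCGCGAG in 4.82% and 1.25%. Near the share of all windows were the SP/KLF box GGGCGG with 43.4% and 46.7%, the CCAAT box with 42.2% and 38.5%, the E-box CACGTG with 8.43% and 7.91%, and the AP-1 motif TGANTCA with 8.43% and 7.04%. The degenerate p53 decamer, of which a full p53 site holds a pair, was found in 4 member windows (4.82%) and 7.37% of all windows; these belonged to Cox8a, Ndufs4, Ndufb2 and a further start site of Atp5j. Motifs can overlap, and a match is only a stretch of letters. The NRF1 motif stood at nearly the same share with and without the calls, in 10 of 36 windows (27.8%) of members called in all 4 libraries and in 13 of 47 (27.7%) of the others, whereas over all genes it stood in 15.9% and 7.06%. The ETS motif stood in 25.0% of the windows of members called in all 4 libraries and in 21.3% of the others, against 19.5% and 9.95% over all genes. Among members, the YY1 motif stood in 8.33% of the windows called in all 4 libraries and in 17.0% of the others, the E-box in 2.78% and 12.8%, and the p53 decamer in 8.33% and 2.13%, from at most 8 windows each. A summit lay inside the window in all 4 libraries for 21 of 83 windows and in no library for 17.

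Genes that serve the respiratory chain but fall outside the symbol rule were described with lists chosen alongside the members. Of 40 assembly factor genes, 30 and 29 were called within 1 kb in mTEChi and 34 and 25 in mTEClo, and 18 in all 4 libraries. The shares of all genes to read these and the following lists against are 37.4% and 37.4% in mTEChi, 47.3% and 35.7% in mTEClo and 17.1% in all 4 libraries. Unlike for the members, it was not examined whether the end of another gene lay nearer to the peaks of these lists. The highest was Pet100, needed to assemble complex IV, which scored 98.5 and 34.8 in mTEChi and 46.1 and 36.6 in mTEClo, above every subunit gene in mTEChi replicate 1 and in both mTEClo libraries. Foxred1, a complex I assembly factor, scored 26.6 and 18.1 in mTEChi and 21.4 and 9.58 in mTEClo, and Coa4, a complex IV factor, 20.6 and 8.88 in mTEChi and 23.1 and 12.7 in mTEClo. Within 1 kb, Ttc19 (complex III) and Acad9 (complex I) were called in mTEChi alone, 2 of 40 genes against 1.94% of all genes. Uqcc3, Sco2 and Atpaf1 were called in mTEClo alone, 3 of 40 genes against 4.08%. Ttc19, Uqcc3 and Sco2 kept the pattern within 5 kb, while Acad9 and Atpaf1 did not. Sco2, a copper chaperone of complex IV known in human cells as a p53 target, scored 2.79 and 3.9 in mTEClo, near the minimum of the lists. Of 17 genes for electron carriers and coenzyme Q synthesis, 10 and 10 were called in mTEChi and 12 and 10 in mTEClo, and 7 in all 4, against 17.1% of all genes. Among the 17 is Cyc1, a complex III subunit gene that the symbol rule misses. It was called within 1 kb in mTEChi replicate 1 (5.07) and mTEClo replicate 1 (11.3) only. Etfdh, which passes electrons from fatty acid oxidation to coenzyme Q, scored 45.3 and 24.0 in mTEChi and 34.2 and 26.1 in mTEClo, and Cycs, the gene of somatic cytochrome c, 33.2 and 16.4 in mTEChi and 20.6 and 9.0 in mTEClo. Coq8a was the third of these genes by rank. Within 1 kb, Coq4 was called in mTEChi alone and Coq2 and Coq5 in mTEClo alone, 1 and 2 of 17 genes against 1.94% and 4.08% of all genes. Within 5 kb, Coq2, Coq4 and Coq5 were each called in all 4 libraries.

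Of 21 regulators of mitochondrial genes, 11 and 13 were called within 1 kb in mTEChi and 13 and 11 in mTEClo, and 7 in all 4, against 17.1% of all genes. Esrra, which encodes the estrogen-related receptor alpha, led with 51.0 and 16.8 in mTEChi and 24.6 and 13.5 in mTEClo. Polg2, the accessory subunit of the mitochondrial DNA polymerase, scored 16.7 and 7.2 in mTEChi and 10.6 and 7.75 in mTEClo, and Gabpa shared the peaks given for Atp5j. Ppargc1b, a coactivator of mitochondrial biogenesis, and Polg, the catalytic subunit of that polymerase, were called in mTEClo alone within 1 kb. These are 2 of 21 genes, against 4.08% of all genes, and within 5 kb both were called in all 4 libraries. Ppargc1b scored 5.67 and 7.97 in mTEClo, with both summits just inside the 1 kb limit, and Polg 5.66 and 2.98 at opposite gene ends.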

How the data were processed

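CUT&RUN libraries from mTEChi and mTEClo cells (2 each) were grouped and numbered by their titles. The submitters' processing notes name mm10, MACS2 2.2.7.1, SAMtools 1.9, Picard and Bowtie2 2.2.9; the sources used here give neither settings nor a control. The deposited lists hold, per library, summits with 150 bp on each side and a score taken to be the authors' −log10 significance (p-value or q-value, not stated which), and the minimum of 2.0 corresponds to 0.01. Depth is unknown.

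Gene ends came from a RefSeq table (GRCm38.p6, 21627 protein-coding genes on chromosomes 1 to 19 and X) and start sites from its promoter table, which covers 78 members. Distances were taken from the summit to either gene end. Shares per library were compared by a two-sided exact permutation test. The members and lists were chosen with earlier results of these data known. Named were the 10 members called in all 4 libraries with the best worst rank and the best of each complex, all state-specific and uncalled members, tissue-restricted subunits and partners, and up to 3 genes per other list and pattern. Same-numbered libraries did not deviate together (correlation 0.0182 over 21627 genes), so the numbers were not used as pairs. Python 3.11.15, numpy 2.4.6, pandas 2.3.3 and matplotlib 3.10.9 were used. Alternatives changed the score cut, list length, window, gene end, overlap rule, member set and libraries. The margin over all genes and its alternatives were added after seeing the data. A member counted in all totals is not reported by name here.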

Additional observations from a re-analysis of the deposited data

How the results depend on the processing

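The count of members called in all 4 libraries within 1 kb, 38, became 22 with peaks above each list's median score and 13 with the 10000 highest peaks, where 11.2% and 5.9% of all genes were called; fewer peaks are tested in both settings by construction. The count within 5 kb, 52, became 34 and 14 in the same settings, against 20.5% and 8.32% of all genes, and 86 (89.6%) with a 25 kb window, against 72.9%. The difference between the states within 5 kb was -2.6 points and turned to 3.12 both with peaks above the median score and with the 10000 highest peaks; the cause was not tested. Leaving out each library in turn gave a range of -4.17 to 6.25 points for the 1 kb difference and of -8.85 to 3.65 for the 5 kb difference. By complex within 1 kb it gave 0.0 to 9.76 points for complex I, 0.0 to 25.0 for complex II, -6.25 to 18.8 for complex III, -13.9 to -2.78 for complex IV and -17.6 to 23.5 for complex V. With the replicate number as a block the mean paired differences were 1.04 points within 1 kb and -2.6 points within 5 kb. The pairs differed in sign, with -3.12 and 5.21 points within 1 kb and -10.4 and 5.21 points within 5 kb. An exact sign-flip test gave p = 1.0 for each mean, but with 2 pairs this test cannot go below 0.5 and so decides nothing. The margin of members over all genes within 1 kb differed between the states by 5.18 points, and 8 alternatives were added after seeing the data. Leaving out a library could not turn the sign of this difference, since the groups did not overlap (6.24 points without mTEChi replicate 2). The replicate block repeats the same 5.18 points. Only the cuts of the peak lists could have turned the sign. Peaks above each list's median score gave 3.68 points and lists cut to the shortest 4.84. The 10000 highest peaks gave 1.23 points (p = 1.0 by the exact permutation test). Two-sided tests of 2 libraries against 2 cannot pass a threshold of 0.05, and without read counts no depth limit can be given for a gene without a peak.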
